A study of Homo sapiens with 6 samples.

Results

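MDA-MB-231 cells that lack PARP1 and carry a short hairpin RNA (shRNA) against SUZ12 were compared with control cells across all genes. MDA-MB-231 is an established human triple-negative breast cancer line of mesenchymal-like character. The comparison used 4 of the 6 RNA sequencing libraries of the series, 2 per group, chosen by their labels. The remaining 2 libraries, made from PARP1 knockout cells in which an shRNA targets EZH2, are set beside them where the depleted lines differ.

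The control cells were wild type for PARP1 and expressed a nontargeting shRNA, shCntr. The shSUZ12 line was a PARP1 knockout (KO) with shSUZ12, and the shEZH2 line a PARP1 KO with shEZH2. All cells were grown in the same serum-containing medium before RNA was taken. No group had lost PARP1 alone or SUZ12 alone, and no PARP1 KO carried the nontargeting shRNA, so the contributions of PARP1 loss and of the SUZ12 shRNA cannot be told apart. Whether the knockout is a single clone is not given in the sources used here. The labels do not say if the libraries of a group are separate cultures, and the p-values therefore cover only the spread among these libraries, which may be technical.

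SUZ12 is a core subunit of Polycomb repressive complex 2 (PRC2). EZH2 or EZH1 is its catalytic subunit and EED binds the mark that the complex makes, methylation of lysine 27 on histone H3, which keeps developmental genes silent. SUZ12 holds these subunits together, and PRC2 lacks activity without it. PARP1 senses DNA breaks and makes poly(ADP-ribose) chains on itself and on chromatin proteins; it also takes part in transcription, including that driven by NF-kB.

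The control libraries held 22782742 (replicate 1) and 20843336 (replicate 2) gene counts, the shSUZ12 libraries 21657404 (replicate 1) and 20135270 (replicate 2). Values are given as CPM, counts per 1000000 counts of a library size scaled by the trimmed mean of M values, in the order replicate 1, replicate 2. A floor of 3 counts lay between 0.136 and 0.145 CPM in these libraries and covers counting error only. Replicates were close: 0.716% of tested genes differed over 2-fold between the control libraries and 0.251% between the shSUZ12 libraries, against 11.1% between the shEZH2 libraries. All 10 markers of the line, among them VIM, CD44, CAV1, AXL, MSN, S100A4, EGFR, MET and PLAUR, were above 1 CPM in both groups, with sums of 10030 and 8638 CPM in the controls against 8130 and 7943 CPM with shSUZ12. Among the luminal breast markers ESR1 had 0 counts, and GATA3 and SPDEF exceeded 1 CPM. Of 12 leukocyte markers, 6 had 0 counts in all 4 libraries, among them CD3E, MS4A1 and AIF1, and PTPRC (CD45) was at 0.337 CPM or less. The summed leukocyte level, 99.4 and 95.4 CPM in the controls against 94.7 and 89.4 CPM with shSUZ12, was nearly all CD68. In bulk RNA, fewer cells that express a gene and less RNA per cell cannot be told apart.

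Of 29744 genes, 9424 had no count in the 4 libraries and 13960 passed edgeR's filter on low counts. A gene counts as called where edgeR's quasi-likelihood test gave a p under 0.05 after Benjamini-Hochberg adjustment. The shSUZ12 line differed from control in 2876 genes (20.6% of those tested), 1370 higher (9.81%) and 1506 lower (10.8%), and the unadjusted p of 4632 was under 0.05. The shares of 9.81% higher and 10.8% lower are the backgrounds for the gene lists below. Many calls were small. The median size of a called log2 fold change was 0.62, and 1326 calls (46.1%) were under 1.5-fold. At least 2-fold, 774 genes were called (5.54%), 424 higher (3.04%) and 350 lower (2.51%). At least 4-fold, 141 were called higher and 107 lower. The 4 libraries left 2 residual degrees of freedom, and the group ranges did not overlap in 8580 tested genes (61.5%), 2876 of them called. With 2 against 2 libraries the smallest p of an exact permutation test on 1 gene is 0.333.

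The counts changed when 1 library was left out, which also lowers the residual degrees of freedom. Without shSUZ12 replicate 1 or 2 the calls numbered 1405 and 1251, and without control replicate 1 or 2 they numbered 2306 and 4014. A fit that held all 6 libraries called 228 genes, since the spread of the shEZH2 libraries then enters the test; all 30 of the largest changes described below were among them. Unless stated otherwise, each gene below said to rise or fall kept its call and direction under every alternative run on these 4 libraries, and the log2 fold change carries its standard error (SE) with n = 2 per group.

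**Figure D1:**
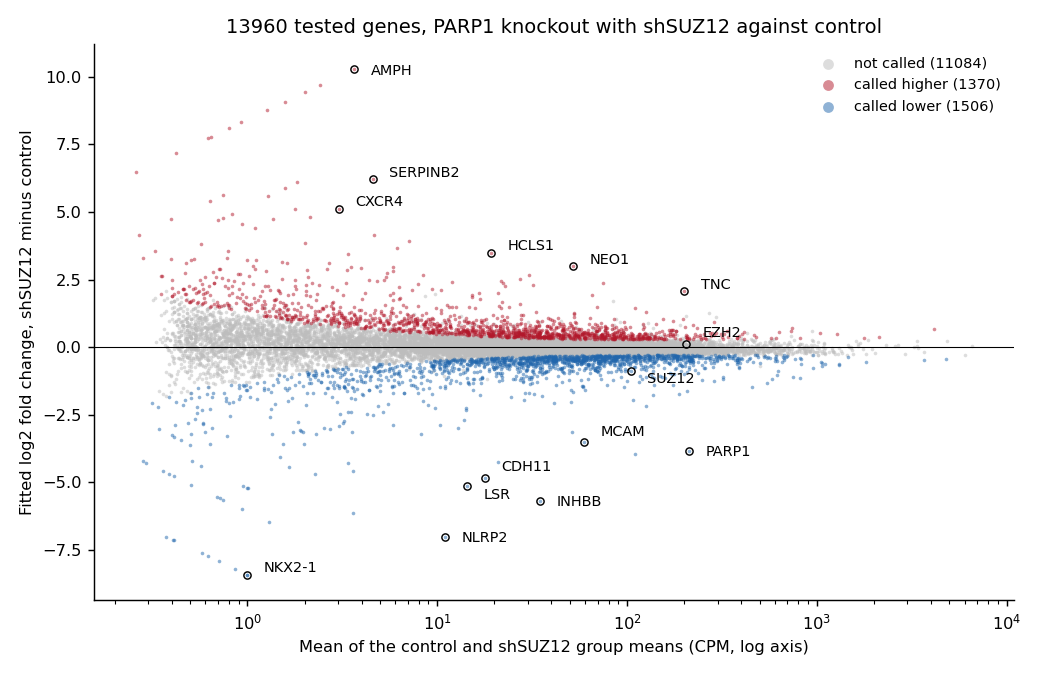
Fitted log2 fold change (shSUZ12 minus control) of the 13960 tested genes against the mean of the group means in CPM on a log axis. Genes called higher (1370) are red, genes called lower (1506) blue and the rest grey, and circled genes are named in the text; fitted values at the edges of the cloud belong to genes with few or 0 counts in a group and have no fixed scale.

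The targeted genes were examined first. PARP1 (chromosome 1, 226360691 to 226408079, minus strand, GRCh38 build) read 431 and 366 CPM in the controls against 29.2 and 27 CPM with shSUZ12. Both shSUZ12 libraries lay far below both controls, and PARP1 fell by 3.83 ± 0.12 on the log2 scale, or 14.2-fold (edgeR adjusted p = 3.61e-14). SUZ12 (chromosome 17, 31937018 to 32001045, plus strand) read 136 and 134 CPM in the controls against 77.4 and 71.4 CPM with shSUZ12. Its groups did not overlap and it fell by 0.86 ± 0.10, or 1.82-fold (edgeR adjusted p = 4.56e-06). The messenger RNA of SUZ12 was thus lowered, not lost. In the 6-library fit the fall of SUZ12 was not called (edgeR adjusted p = 0.377). EZH2 (chromosome 7, 148807383 to 148884321, minus strand) was at 201 and 191 CPM in the controls against 205 and 225 CPM with shSUZ12, with a log2 fold change of 0.13 ± 0.10 that was not called (edgeR adjusted p = 0.392).

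Among the other PRC2 genes the core subunit EED was also lower than in control. EED (chromosome 11, 86244544 to 86278813, plus strand) was at 87.7 and 79.2 CPM in the controls against 47.3 and 49.6 CPM with shSUZ12. Both shSUZ12 libraries were below both controls and EED fell by 0.79 ± 0.11 (edgeR adjusted p = 2.46e-05). With shEZH2, EED was at 55.4 and 57.0 CPM, and SUZ12 was at 135 and 56.5 CPM. The histone-binding subunits RBBP4 and RBBP7 had log2 fold changes of 0.32 ± 0.11 and 0.09 ± 0.10 and were not called. EZH1, the less active relative of EZH2, was at 22.6 and 29.1 CPM in the controls against 32.3 and 37.9 CPM with shSUZ12, with a log2 fold change of 0.44 ± 0.14 (edgeR adjusted p = 0.0298, and 0.306 without shSUZ12 replicate 2). Of 16 tested genes of the PRC2 list, 4 were higher and 3 lower (backgrounds 9.81% and 10.8%). Their median log2 fold change was 0.06, against 0.006 over all tested genes. The list holds 2 demethylases that erase the PRC2 mark, and 1 of the 4 higher genes was among them. Higher calls numbered 0 and 1, and lower calls 3 and 2, without shSUZ12 replicate 1 or 2. DESeq2 called 1 higher and 2 lower, and the fit of all libraries called 0 higher and 0 lower.

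The accessory subunits, which steer PRC2 to its sites, changed little. JARID2 and MTF2 were called higher at 0.33 ± 0.11 and 0.34 ± 0.12 and C17orf96 (EPOP) lower at -0.52 ± 0.17. None of these calls held without shSUZ12 replicate 1 or 2, where the edgeR adjusted p lay between 0.114 and 0.280. AEBP2, PHF1, PHF19, LCOR and C10orf12 were not called and lay between -0.31 and 0.28. By RefSeq symbol and position C10orf12 belongs to LCOR, so the list holds this locus under both symbols. Of the demethylases that erase the PRC2 mark, KDM6B was at 11.4 and 11.2 CPM in the controls against 20.8 and 17.4 CPM with shSUZ12, a log2 fold change of 0.76 ± 0.15 (edgeR adjusted p = 0.00131, and 0.0643 without shSUZ12 replicate 1). KDM6A was at -0.07 ± 0.13 and was not called.

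PRC1 is the complex that binds the PRC2 mark and ubiquitinates histone H2A. Of 24 tested PRC1 genes 3 were higher and 1 lower (backgrounds 9.81% and 10.8%). PCGF3, a subunit of a variant PRC1, rose by 0.53 ± 0.10, from 74.7 and 77.7 to 106 and 115 CPM. PHC1, a polyhomeotic scaffold, was at 3.88 and 3.32 CPM in the controls against 6.64 and 7.84 CPM with shSUZ12, a log2 fold change of 1.0 ± 0.22 (edgeR adjusted p = 0.00276, and 0.0936 without shSUZ12 replicate 2). Among 43 other chromatin modifiers 8 were higher and 2 lower, and without shSUZ12 replicate 1 or 2 the higher calls numbered 1 and 2. The histone deacetylase HDAC11 stood out by size. It was at 5.80 and 5.39 CPM in the controls against 0.864 and 0.823 CPM with shSUZ12, and fell by 2.72 ± 0.30.

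Apart from PARP1 itself, the enzymes of ADP-ribosylation stayed within a narrow range. Of 22 tested, 3 were higher and PARP1 was lower. PARP2, the nearest relative of PARP1 in the DNA damage response, was at 81.8 and 81.0 CPM in the controls against 75.2 and 80.3 CPM with shSUZ12, a log2 fold change of -0.07 ± 0.10 that was not called. The group ranges nearly met, and PARP3 was likewise not called, at 0.19 ± 0.14. The higher ones were PARP4 (the vault PARP, 0.51 ± 0.10), PARP6 (0.53 ± 0.12) and PARP8 (0.37 ± 0.12). Without shSUZ12 replicate 2 their edgeR adjusted p was 0.0521, 0.0891 and 0.190. The 6 erasers tested, PARG, ADPRHL2 (ARH3), ADPRH, MACROD1, MACROD2 and OARD1, had log2 fold changes from 0.14 to 0.85 and did not pass the test, with edgeR adjusted p between 0.116 and 0.707.

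The largest rises included genes at or near 0 in control. AMPH, which encodes the endocytic protein amphiphysin (chromosome 7, 38383704 to 38631567, minus strand), had 0 counts in both controls and 7.14 and 7.46 CPM in the shSUZ12 line. Measured against 3 counts over the control group it was at least 104-fold higher. SERPINB2, an inhibitor of the plasminogen activators (chromosome 18, 63871692 to 63903890, plus strand), was at 0.137 and 0.0963 CPM in the controls against 8.37 and 9.78 CPM with shSUZ12. Its control libraries were at or under the floor of 3 counts and it rose by 6.21 ± 0.38 (edgeR adjusted p = 6.36e-10). CXCR4, the receptor of the chemokine CXCL12 (chromosome 2, 136114349 to 136118165, minus strand), was at 0.228 and 0.0963 CPM in the controls against 6.0 and 5.81 CPM with shSUZ12. It rose by 5.12 ± 0.40 (edgeR adjusted p = 1.91e-08).

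PIK3CG, the catalytic subunit of phosphoinositide 3-kinase gamma, was at 0.684 and 0.289 CPM in the controls against 9.05 and 8.47 CPM with shSUZ12, and rose by 4.14 ± 0.32. HCLS1, a cortactin relative of blood cells (chromosome 3, 121631399 to 121660927, minus strand), went from 3.38 and 2.89 to 35.1 and 35.7 CPM and rose by 3.49 ± 0.16. NEO1, the netrin and repulsive guidance molecule receptor neogenin (chromosome 15, 73051710 to 73305206, plus strand), went from 11 and 12.3 to 96.2 and 89.4 CPM and rose by 3.0 ± 0.12. NEO1 reached the highest level among the 15 largest rises. The secreted proteoglycan gene SPOCK1 went from 0.684 and 1.11 to 12.4 and 10.5 CPM (12.7-fold) and the adhesion gene CADM1 from 0.867 and 0.723 to 6.82 and 5.62 CPM (7.77-fold). WNT5A, a Wnt ligand that acts largely without beta-catenin, went from 0.821 and 1.01 to 7.46 and 6.63 CPM (7.66-fold).

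The other 6 of the 15 largest rises were low in control. RASEF, a Rab-type GTPase, rose 15.4-fold, FRMPD3 rose 10.9-fold and the kinase gene NRK rose 7.81-fold. PLCH2, a phospholipase C, rose 7.32-fold, FKBP10, an endoplasmic reticulum isomerase that acts on procollagen, rose 6.98-fold, and IL8 (CXCL8), the neutrophil chemokine, rose 6.65-fold. Control levels of these 6 genes lay between 0.365 and 2.10 CPM and shSUZ12 levels between 5.37 and 15.9 CPM.

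The largest falls included genes that were well expressed in control. NLRP2, a NOD-like receptor gene (chromosome 19, 54953130 to 55001142, plus strand), went from 21.9 and 21.8 to 0.228 and 0.0968 CPM. It fell by 7.01 ± 0.30, or 129-fold (edgeR adjusted p = 1.67e-12). INHBB, the beta B subunit of activins and inhibins (chromosome 2, 120346143 to 120351808, plus strand), went from 71.6 and 65.8 to 1.77 and 0.871 CPM and fell by 5.68 ± 0.20. LSR, a receptor at tricellular junctions (chromosome 19, 35248330 to 35267964, plus strand), went from 26.8 and 29.3 to 0.682 and 0.920 CPM. The level of LSR fell by 5.13 ± 0.21.

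CDH11, a cadherin of mesenchymal cells (chromosome 16, 64943753 to 65126112, minus strand), went from 29.7 and 39.2 to 1.32 and 1.06 CPM and fell by 4.84 ± 0.21. ITGB2, the beta chain of the leukocyte integrins (chromosome 21, 44885953 to 44931989, minus strand), went from 43.6 and 35.6 to 2.64 and 1.5 CPM and fell by 4.25 ± 0.21. MCAM, the adhesion molecule CD146 (chromosome 11, 119308529 to 119321521, minus strand), went from 125 and 93.1 to 10.7 and 8.57 CPM and fell by 3.50 ± 0.16. These 3 are surface adhesion molecules. NUP210, a membrane glycoprotein of the nuclear pore (chromosome 3, 13316235 to 13420309, minus strand), went from 90.3 and 92.9 to 10.7 and 10.4 CPM and fell by 3.12 ± 0.12. Its replicates were nearly equal within each group.

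The rest of the 15 largest falls ran from 7.93-fold to 71.1-fold. They were AGMAT (71.1-fold), LHFPL4 (24.1-fold), the vitamin D-degrading hydroxylase CYP24A1 (19.4-fold), TNS4 (15.5-fold), placental alkaline phosphatase ALPP (9.34-fold), the splicing regulator ESRP2 (8.69-fold) and the adhesion receptor GPR110 (7.93-fold), besides PARP1. AGMAT had 3 and 1 counts in the shSUZ12 libraries, at or under the floor of 3 counts. LHFPL4 had 5 and 7 counts there and CYP24A1 9 and 5, so the folds of these genes are imprecise. TNS4, a tensin of focal adhesions, was at 151 and 264 CPM in the controls against 14.6 and 12.1 CPM with shSUZ12. Its control libraries were far apart, and the call did not hold without shSUZ12 replicate 1 or 2 (edgeR adjusted p = 0.0793 and 0.0894). ALPP shares reads with near-identical alkaline phosphatase genes, so its value is less certain.

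**Figure D2:**
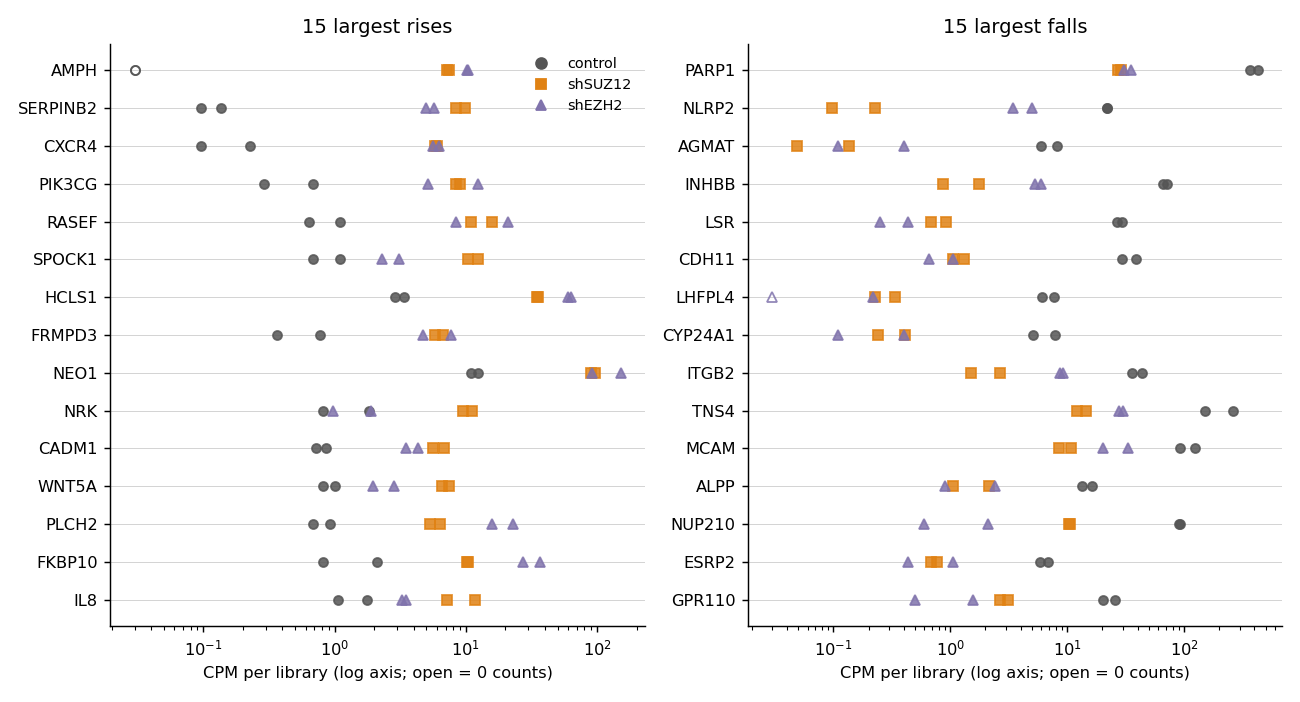
CPM in each of the 6 libraries on a log axis for the 15 largest rises (left) and 15 largest falls (right) in the shSUZ12 line. Each point is 1 library (control circles, shSUZ12 squares, shEZH2 triangles) and open points mark 0 counts; shSUZ12 and control points do not overlap for any gene, which the choice of genes required.

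Among abundant genes the 2-fold changes were falls: the 10 most abundant genes called at 2-fold or more were all lower. They included PARP1 and the hyaluronan receptor CD44, which went from 918 and 734 to 408 and 410 CPM and fell by 1.01 ± 0.11. PTTG1IP went from 1216 and 1014 to 499 and 523 CPM and fell by 1.13 ± 0.11. THBS1, the matrix protein thrombospondin 1, went from 1216 and 823 to 429 and 526 CPM and fell by 1.10 ± 0.20. F3, tissue factor, went from 499 and 391 to 188 and 202 CPM. F2RL1, the protease-activated receptor 2, went from 428 and 387 to 167 and 172 CPM. ANKRD1, KRT7, PRSS23 and TMEM123 fell 2.26-fold, 2.49-fold, 2.80-fold and 2.16-fold.

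NF-kB targets were called higher more often than lower. NF-kB is a family of transcription factor dimers, held in the cytoplasm by inhibitors that NF-kB itself induces, and its targets include chemokines, adhesion molecules and its own subunits. Of 39 tested list members, 16 were higher (background 9.81%) and 2 lower (background 10.8%), 10 of the higher ones by at least 2-fold (background 3.04%). The list's median log2 fold change was 0.37, against 0.006 over all tested genes. Leaving out shSUZ12 replicate 1 or 2, the higher calls were 11 and 13 and the median 0.15 and 0.36, and in the 6-library fit 3 were higher. Members were chosen with earlier results of these data known.

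By role, the feedback inhibitors and part of the subunits moved. NFKBIA, the main inhibitor that binds NF-kB, was at 36.3 and 32.9 CPM in the controls against 68.6 and 61.6 CPM with shSUZ12 and rose by 0.91 ± 0.11 (edgeR adjusted p = 7.67e-06). TNFAIP3 (A20), an enzyme that ends signalling to NF-kB, went from 3.65 and 3.23 to 7.83 and 8.81 CPM and rose by 1.27 ± 0.21. NFKBIE rose by 0.75 ± 0.14. NFKBIZ was at 9.81 and 17.8 CPM in the controls against 26.7 and 34.0 CPM with shSUZ12, a log2 fold change of 1.14 ± 0.29 whose call was lost without shSUZ12 replicate 1 or 2 (edgeR adjusted p = 0.0610 and 0.149). TNIP1 and CYLD were not called. Among the subunits RELB rose by 1.11 ± 0.18, from 9.63 and 6.94 to 19.6 and 16.1 CPM, and NFKB2 rose by 0.75 ± 0.11. RELA, NFKB1 and REL lay between 0.06 and 0.20 and were not called.

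The effectors that rose most were chemokines. IL8 (chromosome 4, 73740506 to 73743716, plus strand) was at 1.78 and 1.06 CPM in the controls against 11.8 and 7.17 CPM with shSUZ12 and rose by 2.73 ± 0.30 (edgeR adjusted p = 1.15e-05). CXCL1 went from 0.274 and 0.337 to 2.96 and 2.52 CPM and rose by 3.14 ± 0.42. CXCL2 went from 0.365 and 0.771 to 2.87 and 1.89 CPM, a log2 fold change of 2.07 ± 0.42 (edgeR adjusted p = 0.00134, and 0.0770 without shSUZ12 replicate 1). CXCL1, CXCL2 and CXCL3 are close paralogs at few counts, so reads may have been split between them. The adhesion molecule ICAM1 went from 13.1 and 14.1 to 47.4 and 34.8 CPM and rose by 1.60 ± 0.15. IER3, an early response gene and the most abundant of these, went from 189 and 201 to 369 and 384 CPM and rose by 0.95 ± 0.10. BIRC2 (cIAP1), a ubiquitin ligase that restrains the non-canonical branch in which NFKB2 and RELB act, went the other way, from 167 and 150 to 72.7 and 77.7 CPM, and fell by 1.07 ± 0.10. BCL2L1 was called lower at -0.34 ± 0.10 and lost the call without shSUZ12 replicate 1 or 2. IL6, at 2.10 and 3.23 CPM in the controls against 5.87 and 2.86 CPM with shSUZ12, overlapped between groups and was not called.

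**Figure D3:**
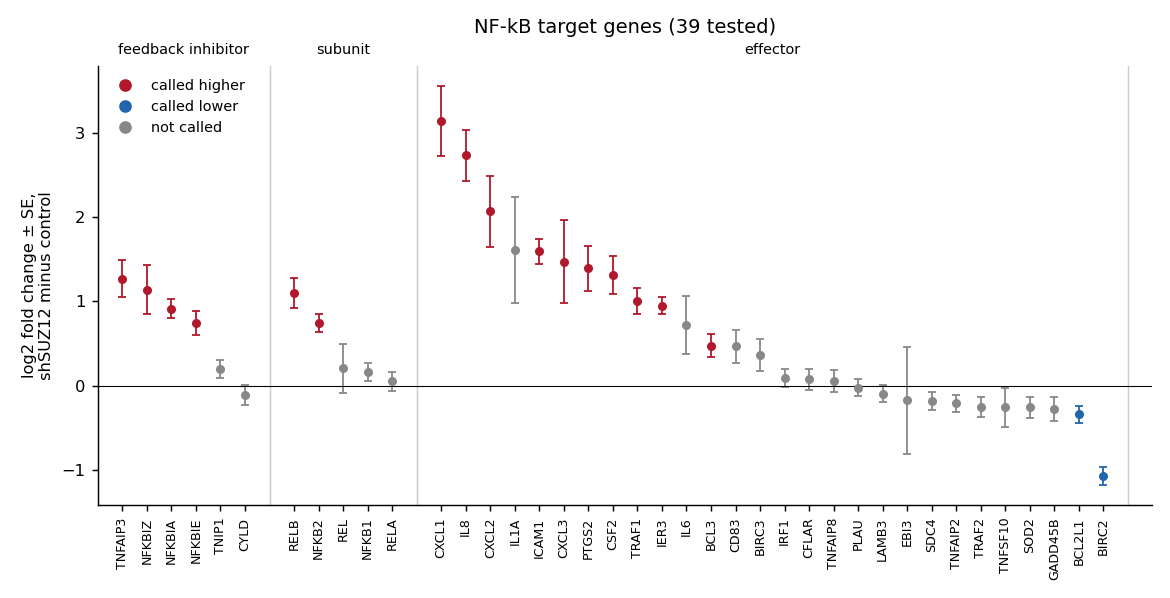
Log2 fold change (shSUZ12 minus control) with its standard error for each of the 39 tested NF-kB list genes, grouped by role and sorted within it. Red genes were called higher (16), blue lower (2) and grey not called; 2 subunits and 4 feedback inhibitors are among the red ones.

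The promoters of the CXCL genes and of TNFAIP3 hold NF-kB consensus letters just before the gene start. RefSeq promoter windows (GRCh38.p14, 250 bases before to 50 after the start) were searched on both strands for GGGNNTTCC and for GGGNNTTTCC, the latter added after the data were seen; matches of the 2 patterns may overlap. Of 36 list members with a window, 20 held either pattern, 15 (41.7%) the shorter and 13 (36.1%) the longer. Members were listed as NF-kB targets, so high shares follow from how the list was made and nothing is read from them. Over the 10687 tested genes with a window the shares were 10.4% and 2.85%; these genes are 76.6% of those tested. Among the 1041 of them called higher the shares were 9.99% and 3.84%. Either pattern was held by 1306 of the 10687 genes and by 125 of the 1041 called higher. Of the 13 members called higher that have a window, 9 held either pattern, beside 20 of all 36 members. Whether the patterns go with the calls was not tested. The 120 bases before the start are shown 5′ to 3′ on the gene's strand, with matches in capitals, because the CXCL genes share their layout and were called higher with TNFAIP3.
CXCL1 (chr4:73869273-73869392, plus strand): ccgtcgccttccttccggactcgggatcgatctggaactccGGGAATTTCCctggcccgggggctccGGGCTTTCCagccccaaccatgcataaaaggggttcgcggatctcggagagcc
CXCL2 (chr4:74099196-74099315, minus strand): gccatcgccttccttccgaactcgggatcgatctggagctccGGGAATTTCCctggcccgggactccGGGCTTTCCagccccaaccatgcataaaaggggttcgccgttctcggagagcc
CXCL3 (chr4:74038690-74038809, minus strand): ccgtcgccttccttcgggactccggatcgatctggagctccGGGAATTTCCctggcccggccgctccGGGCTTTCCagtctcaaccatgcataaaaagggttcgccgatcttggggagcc
TNFAIP3 (chr6:137867139-137867258, plus strand): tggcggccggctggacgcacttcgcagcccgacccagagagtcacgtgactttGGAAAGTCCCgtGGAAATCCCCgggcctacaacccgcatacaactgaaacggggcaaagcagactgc
CXCL8, the gene listed as IL8 (chr4:73740449-73740568, plus strand): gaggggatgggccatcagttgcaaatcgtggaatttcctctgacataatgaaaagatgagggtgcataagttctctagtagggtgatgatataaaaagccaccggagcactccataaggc
The 3 CXCL windows carry 1 match of each pattern in the same order. The window of CXCL8 holds 0 matches to these letters, which says nothing about the factor. A match is a description of the sequence, not a measured binding site, and CXCL3 itself was at 0.319 and 0.433 CPM in the controls against 1.27 and 0.823 CPM with shSUZ12, a call that was lost without control replicate 1 or either shSUZ12 replicate.

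Of 21 tested chemokines, interleukins and colony-stimulating factors, 8 were called higher and 2 lower, and all 8 by at least 2-fold (background 3.04%). The 8 include CXCL1, CXCL2, CXCL3, IL8 and CSF2, which the NF-kB list holds too. CSF3, the granulocyte colony-stimulating factor, went from 0.456 and 0.530 to 3.41 and 3.87 CPM and rose by 2.87 ± 0.36 (edgeR adjusted p = 9.34e-06). CSF2, its granulocyte and macrophage counterpart, went from 4.33 and 2.99 to 9.96 and 8.33 CPM and rose by 1.32 ± 0.22. SPP1, osteopontin, had 2 counts over both controls and 133 in the shSUZ12 line, a ratio of 66.6 (95% counting interval 18.1 to 555). IL18, activated by the inflammasome, fell by 0.64 ± 0.12, from 34.0 and 33.9 to 22.1 and 21.4 CPM. With shSUZ12 replicate 1 or 2 removed, the higher calls were 5 and 6.

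Receptors for cytokines did not share a direction: 4 of 26 were higher and 5 lower (backgrounds 9.81% and 10.8%), with a median of -0.10. CXCR4 rose most. IL1RAP, the shared chain of interleukin 1 receptors, fell by 1.72 ± 0.20, from 16.2 and 12.7 to 4.91 and 3.83 CPM. CSF2RA, the receptor chain for the CSF2 product, fell by 1.18 ± 0.16, from 24.1 and 19.5 to 10.4 and 8.81 CPM. CSF1R was at 3.01 and 4.43 CPM in the controls against 6.23 and 7.07 CPM with shSUZ12, a log2 fold change of 0.84 ± 0.24 that is called in the 4 libraries and not under every alternative.

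Of 19 tested genes known from blood-cell signalling, 9 were called higher and 2 lower (backgrounds 9.81% and 10.8%). At least 2-fold, 8 of them were called higher (background 3.04%). The median was 0.50, with 0.27 and 0.83 without shSUZ12 replicate 1 or 2. CXCR4, PIK3CG and HCLS1 led the list. LCP1, an actin-bundling plastin of leukocytes, went from 7.58 and 5.64 to 41.8 and 31.4 CPM and rose by 2.47 ± 0.18. LAPTM5, a lysosomal membrane protein, was the most abundant, going from 134 and 123 to 268 and 259 CPM, and rose by 1.03 ± 0.10. IKZF3, a lymphoid transcription factor, went from 0.639 and 0.433 to 2.18 and 3.87 CPM and rose by 2.48 ± 0.41. DOCK2, an activator of Rac, rose by 0.59 ± 0.12. The defining markers CD3E, CD2 and MS4A1 had 0 counts in all 4 libraries, and PTPRC stood at 0.228 and 0.337 CPM in the controls against 0.0910 and 0.291 CPM with shSUZ12. Among myeloid markers CD14 went from 0.776 and 0.674 to 1.87 and 2.13 CPM and LYZ from 0.137 and 0.289 to 0.546 and 0.484 CPM, and CSF1R moved likewise, while CD68 went from 95.2 and 89.6 to 85.9 and 79.4 CPM. Over all 12 leukocyte markers, 6 of them with 0 counts in all 4 libraries, the sums were 99.4 and 95.4 CPM in the controls against 94.7 and 89.4 CPM with shSUZ12. Their part in the result was not tested. VAV1 and CORO1A were the lower calls, and neither held without shSUZ12 replicate 2. Without shSUZ12 replicate 1 or 2 the higher calls were 9 and 7, and the 6-library fit called 5.

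Of 44 tested interferon-stimulated genes 10 were called lower and 4 higher (backgrounds 10.8% and 9.81%), with a median of -0.06. The fit of all 6 libraries called 0 lower and 2 higher. The IFIT genes, RNA-binding effectors of the antiviral response, lay together below control. IFIT2 went from 49.1 and 45.6 to 23.5 and 24.1 CPM and fell by 0.99 ± 0.12, and IFIT1, IFIT3 and IFIT5 fell by 0.84, 0.84 and 0.57. BST2 (tetherin), which holds budding viruses at the membrane, went from 88.0 and 81.3 to 30.9 and 31.7 CPM and fell by 1.44 ± 0.11. IFI27 fell by 1.46 ± 0.23. Against these, TRIM22, an antiviral ubiquitin ligase, went from 1.69 and 1.64 to 6.46 and 6.83 CPM and rose by 1.99 ± 0.25. IFI44L went from 1.32 and 1.30 to 4.91 and 5.23 CPM and rose by 1.95 ± 0.28. With shSUZ12 replicate 1 or 2 removed, the lower calls were 8 and 8.

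Of 7 tested class II antigen presentation genes 3 were called higher (background 9.81%). Of 16 class I genes ERAP1, a trimming peptidase, alone was called, as lower (background 10.8%). ERAP1 lost the call without control replicate 1 or either shSUZ12 replicate. The difference between the classes was not tested. HLA-DRA, the class II alpha chain, went from 7.35 and 5.88 to 27.6 and 20.1 CPM and rose by 1.85 ± 0.18 (edgeR adjusted p = 8.96e-07). HLA-DPA1 went from 0.730 and 0.578 to 3.41 and 2.52 CPM and rose by 2.17 ± 0.37. CIITA, the master regulator of class II genes, was at 9.72 and 13.3 CPM in the controls against 9.46 and 11.2 CPM with shSUZ12, with overlapping groups, and was not called. CD74, the invariant chain that accompanies class II molecules, was not called either, at -0.15 ± 0.10.

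Genes of epithelial junctions, keratins and their regulators were lower. These genes tie epithelial cells together and shape their skeleton. Of 37 tested, 20 were lower (background 10.8%) and 2 higher, 11 lower by at least 2-fold (background 2.51%), with a median log2 fold change of -0.47. Leaving out shSUZ12 replicate 1 or 2, the lower calls were 13 and 11 and the median -0.55 and -0.42, and the 6-library fit called 7. CDH1, E-cadherin, did not pass the filter, with 0.365 and 0.867 CPM in the controls against 0 and 0.0968 CPM with shSUZ12.

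Of 18 junction genes 8 were lower and 0 higher. LSR fell most. CLDN1, a tight junction claudin, went from 4.11 and 2.79 to 0.455 and 0.339 CPM and fell by 3.10 ± 0.40. EPCAM, an epithelial adhesion molecule, went from 16.6 and 14.4 to 7.42 and 6.15 CPM and fell by 1.19 ± 0.17. The desmosomal genes DSP and PKP2 fell by 0.66 ± 0.10 and 0.63 ± 0.11. Of 7 keratins 5 were lower. KRT7 went from 821 and 739 to 319 and 307 CPM and fell by 1.32 ± 0.10, and KRT81 went from 338 and 286 to 102 and 103 CPM and fell by 1.61 ± 0.11. KRT8 and KRT18, the simple epithelial pair, were called at -0.33 ± 0.10 and -0.37 ± 0.10 and lost the call without shSUZ12 replicate 1 or 2.

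Among the regulators, the epithelial transcription factors EHF and ELF3 and the splicing factor ESRP2 fell together. EHF went from 57.7 and 75.8 to 15.9 and 16.1 CPM and fell by 2.06 ± 0.14. ELF3 went from 3.38 and 5.59 to 0.409 and 0.726 CPM and fell by 2.97 ± 0.38. ESRP2 (chromosome 16, 68229111 to 68238102, minus strand) went from 6.89 and 5.83 to 0.773 and 0.678 CPM and fell by 3.12 ± 0.30. Its paralog ESRP1 was called in the other direction at very low counts, 0.182 and 0.144 CPM in the controls against 0.819 and 0.678 CPM with shSUZ12, and lost that call without control replicate 2 or either shSUZ12 replicate.

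**Figure D4:**
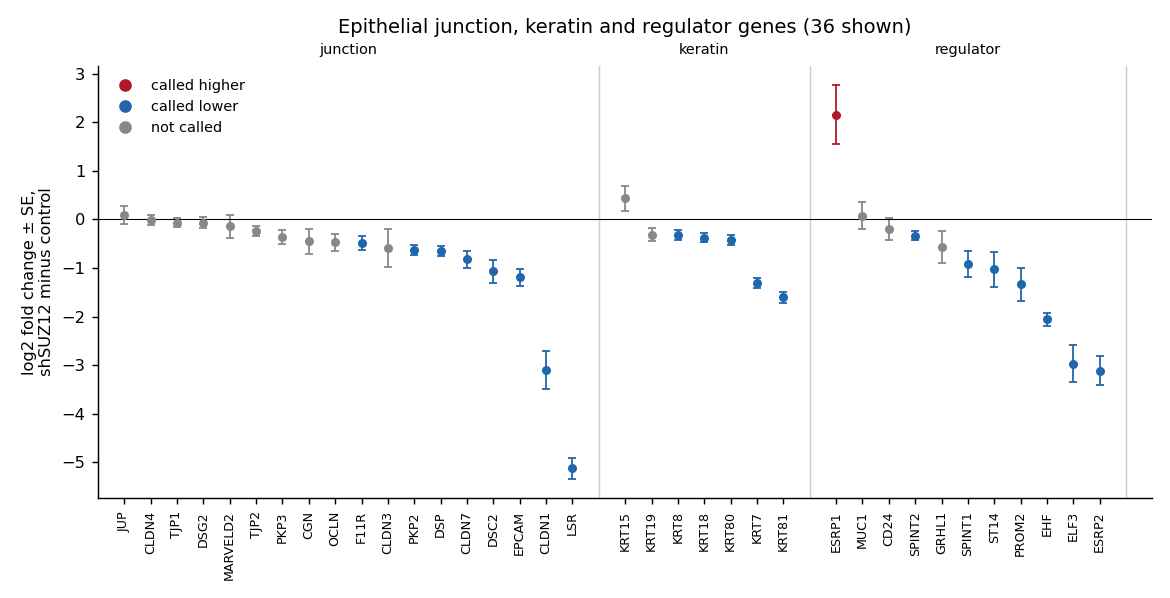
Log2 fold change (shSUZ12 minus control) with its standard error for 36 of the 37 tested epithelial genes, grouped as junction, keratin and regulator genes and sorted within each. Blue genes were called lower (20), red higher (1) and grey not called; LSR at -5.13 is the lowest point.

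Of 28 tested mesenchymal genes 8 were called lower and 4 higher, 18 lay above control, and without shSUZ12 replicate 1 or 2 the higher calls were 0 and 0. VIM, vimentin, was at 3213 and 2983 CPM in the controls against 3641 and 3708 CPM with shSUZ12, a log2 fold change of 0.25 ± 0.10 that was not called (edgeR adjusted p = 0.101). All 7 tested transcription factors of the list lay above control, with a median of 0.54. PRRX1, a homeobox factor, was the one called, at 1.18 ± 0.33, while ZEB1 and SNAI2 lay at 0.12 ± 0.10 and 0.09 ± 0.14. The higher calls also held SPARC (1.83 ± 0.46), a matrix glycoprotein, and S100A4 (0.45 ± 0.11), a calcium-binding protein; the calls of PRRX1, SPARC and S100A4 were lost without either shSUZ12 replicate. CDH11 and CD44 were among the lower ones. AXL, a receptor kinase of mesenchymal-like cells, went from 1768 and 1462 to 1002 and 1030 CPM and fell by 0.67 ± 0.11. LOXL2, a collagen cross-linking enzyme, fell by 0.77 ± 0.11 and the myosin light chain gene MYL9 fell by 0.83 ± 0.11.

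Adhesion molecules moved in both directions. Of 27 cadherins and immunoglobulin-type adhesion genes 7 were higher and 8 lower. FAT3 went from 14.4 and 10.7 to 36.0 and 35.0 CPM and rose by 1.5 ± 0.15, while FAT4, also a giant cadherin, went from 85 and 68.2 to 47.9 and 40.9 CPM and fell by 0.79 ± 0.12. CDH18, a neural cadherin, had 2 counts over both controls and 58 in the shSUZ12 line, a ratio of 29 (95% counting interval 7.68 to 245). ALCAM fell by 0.53 ± 0.10. Of 15 integrins 3 were higher and 3 lower. ITGA10, a collagen-binding alpha chain, went from 5.07 and 8.24 to 23.5 and 29.2 CPM and rose by 1.99 ± 0.20. ITGA3, a laminin receptor chain, was at 1457 and 1212 CPM in the controls against 871 and 855 CPM with shSUZ12, a log2 fold change of -0.63 ± 0.11 (edgeR adjusted p = 0.000322, and 0.0527 without shSUZ12 replicate 2).

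Of 60 matrix genes 12 were higher and 13 lower (backgrounds 9.81% and 10.8%). TNC, tenascin C (chromosome 9, 115019578 to 115118257, minus strand), was at 82.8 and 71.7 CPM in the controls against 317 and 331 CPM with shSUZ12. Both shSUZ12 libraries were far above both controls, and TNC rose by 2.07 ± 0.11 (edgeR adjusted p = 4.99e-11). COL4A5, a basement membrane collagen chain, went from 5.75 and 5.68 to 15.7 and 18 CPM and rose by 1.55 ± 0.17. Other basement membrane and cell surface components fell. HSPG2, perlecan, went from 151 and 180 to 74.1 and 73.1 CPM and fell by 1.17 ± 0.11. SDC2, a heparan sulfate proteoglycan of the surface, fell by 1.46 ± 0.11, EFEMP1 (fibulin 3) by 2.03 ± 0.14 and MATN2 (matrilin 2) by 2.27 ± 0.17.

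Of 27 tested metalloproteases that act on the matrix 10 were called higher and 5 lower (backgrounds 9.81% and 10.8%), and of their 5 inhibitors 1 and 1. ADAMTS6 went from 3.24 and 2.22 to 14.3 and 9.68 CPM and rose by 2.13 ± 0.24. ADAMTS1, which cleaves proteoglycans, went from 9.26 and 7.56 to 23.8 and 22.7 CPM and rose by 1.46 ± 0.15. MMP14, a membrane-bound collagenase, went from 514 and 512 to 767 and 737 CPM and rose by 0.55 ± 0.10. ADAMTS15 went the other way, from 89.8 and 90.6 to 27.1 and 33.5 CPM, and fell by 1.57 ± 0.12. The proteases of insulin-like growth factor binding proteins split: PAPPA2 rose by 2.45 ± 0.28 and PAPPA fell by 1.15 ± 0.15. For proteases and inhibitors together the 11 higher and 6 lower calls became 8 and 7 higher and 3 and 3 lower without shSUZ12 replicate 1 or 2.

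In the plasminogen system, which activates plasmin at the cell surface, 10 inhibitors and 6 activators and receptors were tested. Of the inhibitors 4 were called higher and 1 lower, and the 4 became 2 and 3 without shSUZ12 replicate 1 or 2. The activators and receptors lay between -0.30 and 0.28 and did not pass the test; the difference between the roles was not tested. Besides SERPINB2, SERPINA1 (alpha-1 antitrypsin) went from 2.33 and 2.31 to 9.64 and 9.05 CPM and rose by 2.01 ± 0.22. SERPINB9, an inhibitor of granzyme B, went from 42.2 and 38.5 to 16.3 and 16.9 CPM and fell by 1.28 ± 0.13.

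Antagonists of the TGF-beta family were lower or not called, and its ligands went both ways. Of 50 tested genes of this pathway 10 were lower and 5 higher (backgrounds 10.8% and 9.81%). Of the 10 antagonists 5 were lower and 0 higher. INHBB fell most. TGFB2 went from 151 and 130 to 65.6 and 51.9 CPM and fell by 1.26 ± 0.12, and BMP4 went from 260 and 270 to 144 and 171 CPM and fell by 0.75 ± 0.11. The secreted antagonist FST, follistatin, which binds activins, went from 92.6 and 60.0 to 28.2 and 23.2 CPM and fell by 1.57 ± 0.22. FSTL3, its relative, was at 55.4 and 34.7 CPM in the controls against 16.9 and 18.9 CPM with shSUZ12, a call that did not hold under every alternative. BMP2 was the ligand that rose most, from 1.09 and 1.01 to 3.14 and 3.05 CPM, by 1.55 ± 0.32. Of the receptors, TGFBR2 went from 188 and 170 to 297 and 284 CPM and rose by 0.70 ± 0.10, while the co-receptor TGFBR3 fell by 0.90 ± 0.15. Among 11 target genes PMEPA1 alone was called, and rose by 0.58 ± 0.10.

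Growth factors and their receptors were more often lower: of 59 tested, 21 were lower (background 10.8%) and 8 higher (background 9.81%), with a median of -0.14. Of 27 receptors 10 were lower and 2 higher. KDR, the main VEGF receptor, was low in these cells and went from 8.99 and 6.70 to 1.36 and 1.36 CPM, falling by 2.52 ± 0.26. MUSK, the receptor kinase of the neuromuscular junction, fell by 2.41 ± 0.28, and ROR1, a receptor for WNT5A, went from 50.8 and 49.0 to 26.9 and 26.8 CPM and fell by 0.89 ± 0.11. Of 5 binding proteins of insulin-like growth factors 4 were lower; IGFBP3 went from 65.7 and 57.3 to 24.4 and 21.8 CPM and fell by 1.41 ± 0.12. Among ligands VEGFA, the main angiogenic factor, went from 208 and 214 to 300 and 293 CPM and rose by 0.49 ± 0.10, while its relative PGF fell by 1.05 ± 0.20. The ligands of the EGF receptor family TGFA and NRG1 fell by 0.86 ± 0.11 and 0.79 ± 0.11, and BDNF went from 45.2 and 33.9 to 17.7 and 15.9 CPM and fell by 1.23 ± 0.15. NRG2 rose by 2.89 ± 0.51 at 0.411 and 0.0963 CPM in the controls against 2.09 and 1.79 CPM with shSUZ12. Leaving out shSUZ12 replicate 1 or 2, the lower calls were 14 and 12.

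In the Wnt and Notch pathways 7 of 39 genes were higher and 10 lower (backgrounds 9.81% and 10.8%). WNT5A rose, and WNT7B, a ligand of the beta-catenin branch, went from 77.0 and 82.8 to 33.2 and 35.7 CPM and fell by 1.21 ± 0.11. The secreted Wnt antagonist DKK1 went from 279 and 188 to 114 and 122 CPM and fell by 0.98 ± 0.17. The receptor FZD4 fell by 1.20 ± 0.13. The R-spondin receptors split: LGR5 rose by 1.47 ± 0.22, from 3.24 and 4.05 to 8.55 and 11.7 CPM, and LGR4 fell by 0.90 ± 0.12, from 80.5 and 101 to 50.5 and 46.8 CPM. JAG2, a Notch ligand, went from 12.1 and 14.6 to 2.96 and 3.78 CPM and fell by 1.99 ± 0.21.

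Developmental transcription factors, a class that PRC2 is known to keep silent, did not rise as a group. Of 59 tested (137 are in the counts), 8 were higher and 9 lower, with a median of 0.05. With shSUZ12 replicate 1 or 2 removed, 4 and 4 were higher and 7 and 5 lower. POU3F2 (BRN2) went from 0.593 and 0.626 to 2.96 and 2.95 CPM and rose by 2.27 ± 0.36. PAX8 went from 3.06 and 3.23 to 6.64 and 7.84 CPM and rose by 1.20 ± 0.22, and SOX4 from 48.5 and 64.5 to 126 and 104 CPM, by 1.03 ± 0.14.

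At 2-fold or more, 6 of the 59 tested factors of this class were called higher and 6 lower (backgrounds 3.04% and 2.51%). The highest log2 fold change belonged to FOXA1, a pioneer factor of luminal breast cells, named after its values were seen, which was at 0.0456 and 0 CPM in the controls against 0.50 and 0.532 CPM with shSUZ12. NKX2-1, a factor of lung and thyroid (chromosome 14, 36516392 to 36521149, minus strand), had 2.05 and 1.93 CPM in the controls and 0 counts in both shSUZ12 libraries. Against a floor of 3 counts over the group it was at least 28.3-fold lower. IRX2 and IRX1 are neighbouring Iroquois genes on chromosome 5 (2745845 to 2751662, minus strand, and 3596054 to 3601403, plus strand). IRX2 had 2.33 and 1.11 CPM in the controls and 0 counts in the shSUZ12 line, at least 24.6-fold lower. IRX1 went from 3.19 and 4.19 to 0.273 and 0.339 CPM and fell by 3.57 ± 0.40. NKX2-1 and IRX2 also had 0 counts in both shEZH2 libraries. Of 39 HOX genes in the counts 11 were tested, none of them from cluster A, and HOXB6 alone was called higher. It was at 1.0 and 1.16 CPM in the controls against 2.27 and 2.47 CPM with shSUZ12, a log2 fold change of 1.13 ± 0.34 whose call was lost without control replicate 1 or either shSUZ12 replicate.

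Axon guidance genes were called in 9 cases higher and 12 lower of 42 (backgrounds 9.81% and 10.8%). Of 19 receptors 6 were called higher, NEO1 among them, and 4 lower. ROBO4, a Roundabout receptor of endothelium, went from 25.2 and 29.96 to 58.5 and 59.1 CPM and rose by 1.09 ± 0.12. The endothelial marker PECAM1 was at 1.87 and 3.04 CPM in the controls against 4.55 and 7.12 CPM with shSUZ12, and CDH5, CLEC14A and EMCN had 0 counts in all 4 libraries. The summed level of the 7 endothelial markers was 2.33 and 3.13 CPM in the controls against 5.23 and 7.75 CPM with shSUZ12; their part in the change of ROBO4 was not tested. Of 23 ligands 8 were called lower and 3 higher. EFNB2 fell by 0.59 ± 0.10, from 104 and 102 to 65.7 and 71.1 CPM, and NTN4 fell by 0.96 ± 0.16. SEMA4B rose by 0.75 ± 0.12.

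Cell cycle genes stayed close to control. Of 68 tested 3 were higher and 8 lower, with 54 below control and a median of -0.13, and 0 of the 8 lower ones fell 2-fold. CDKN1A (p21), an inhibitor of cyclin-dependent kinases and a p53 target, went from 27.5 and 35.2 to 79.7 and 68.5 CPM and rose by 1.24 ± 0.13 (edgeR adjusted p = 1.55e-06). CCND2, a D-type cyclin, went from 4.61 and 3.27 to 19.6 and 14.6 CPM and rose by 2.11 ± 0.21. CCNE1, cyclin E1, went from 19.2 and 17.7 to 9.51 and 11.2 CPM and fell by 0.83 ± 0.15. The proliferation marker MKI67 was at 1161 and 1232 CPM in the controls against 968 and 1035 CPM with shSUZ12, a log2 fold change of -0.26 ± 0.10 that was not called (edgeR adjusted p = 0.0824). The lower calls were 3 and 3 without shSUZ12 replicate 1 or 2 and 15 without control replicate 2. Of 22 p53 targets 4 were higher and 0 lower, with 3 of the 4 below 2-fold. MDA-MB-231 is known to carry a mutant p53.

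Apoptosis and DNA repair genes showed single members. BMF, a pro-apoptotic BH3-only protein, went from 3.24 and 2.41 to 10.6 and 8.86 CPM and rose by 1.78 ± 0.23, and the decoy receptor gene TNFRSF10D rose by 0.65 ± 0.12. BOK, a pro-apoptotic BCL2 relative, fell by 0.62 ± 0.12. Of 60 DNA repair genes 6 were higher and 2 lower (backgrounds 9.81% and 10.8%), with a median of 0.01. MRE11A, a nuclease at DNA ends, went from 54.8 and 54.6 to 29.9 and 33.3 CPM and fell by 0.79 ± 0.11. The helicase gene BLM went from 29.1 and 27.5 to 50.6 and 48.0 CPM and rose by 0.80 ± 0.11, and FANCI of the Fanconi pathway rose by 0.64 ± 0.10.

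Hypoxia and glycolysis genes had 11 members higher and 2 lower of 46 (backgrounds 9.81% and 10.8%). STC1, a secreted hypoxia target, went from 34.0 and 27.6 to 77.9 and 69.6 CPM and rose by 1.26 ± 0.12, and PFKFB4, a regulator of glycolysis, rose by 0.95 ± 0.17. EPAS1, the hypoxia-inducible factor HIF-2 alpha, went from 82.1 and 90.6 to 33.6 and 29.5 CPM and fell by 1.45 ± 0.11. PHGDH, which opens serine synthesis, went from 8.62 and 8.0 to 34.4 and 32.1 CPM and rose by 2.00 ± 0.14, while the amino acid transporter gene SLC7A5 went from 946 and 659 to 443 and 436 CPM and fell by 0.87 ± 0.15. Of the immediate early genes EGR1 went from 2.74 and 4.96 to 20.7 and 19.7 CPM and rose by 2.40 ± 0.22. The AP-1 subunits JUNB rose by 0.86 ± 0.14, and FOSL1 and FOSL2 fell by 0.60 ± 0.10 and 0.82 ± 0.10. In the unfolded protein and amino acid stress list 1 of 40 was higher, PHGDH, and 6 were lower.

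Cholesterol synthesis genes differed between the control replicates. Of 30 tested 0 were called higher by edgeR and 2 by DESeq2, and the lower one, ABCA1, which exports cholesterol, fell by 0.98 ± 0.17. HMGCS1 was at 30.9 and 95.7 CPM in the controls against 155 and 88.1 CPM with shSUZ12, and INSIG1 at 103 and 266 CPM in the controls against 536 and 274 CPM with shSUZ12. In both genes control replicate 2 was close to shSUZ12 replicate 2. The list's median was 0.41, 0.05 without control replicate 1 and 0.77 without control replicate 2, where 21 were called higher. Ribosomal protein genes had 4 higher and 2 lower of 76 with a median of -0.06, and 18 lower without control replicate 2. RPLP1 rose by 0.70 ± 0.10, and RPS4X and RPL35A fell by 0.78 ± 0.11 and 0.73 ± 0.11. Respiratory chain genes had 4 higher and 4 lower of 49; without shSUZ12 replicate 1 or 2 these became 1 and 2 higher and 1 and 0 lower.

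Of 29 cancer-testis antigen genes in the counts 5 were tested. MAGEC1, at 5.93 and 3.56 CPM in the controls against 1.09 and 1.21 CPM with shSUZ12, fell by 2.04 ± 0.32. MAGEC2 went from 3.10 and 1.40 to 0.50 and 0.242 CPM and fell by 2.57 ± 0.49. MAGEA3, which shares reads with near-identical copies, went from 4.20 and 2.12 to 0.182 and 0.0968 CPM and fell by 4.44 ± 0.53. SPANXB1 rose by 0.97 ± 0.10, from 111 and 125 to 239 and 225 CPM.

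**Figure D5:**
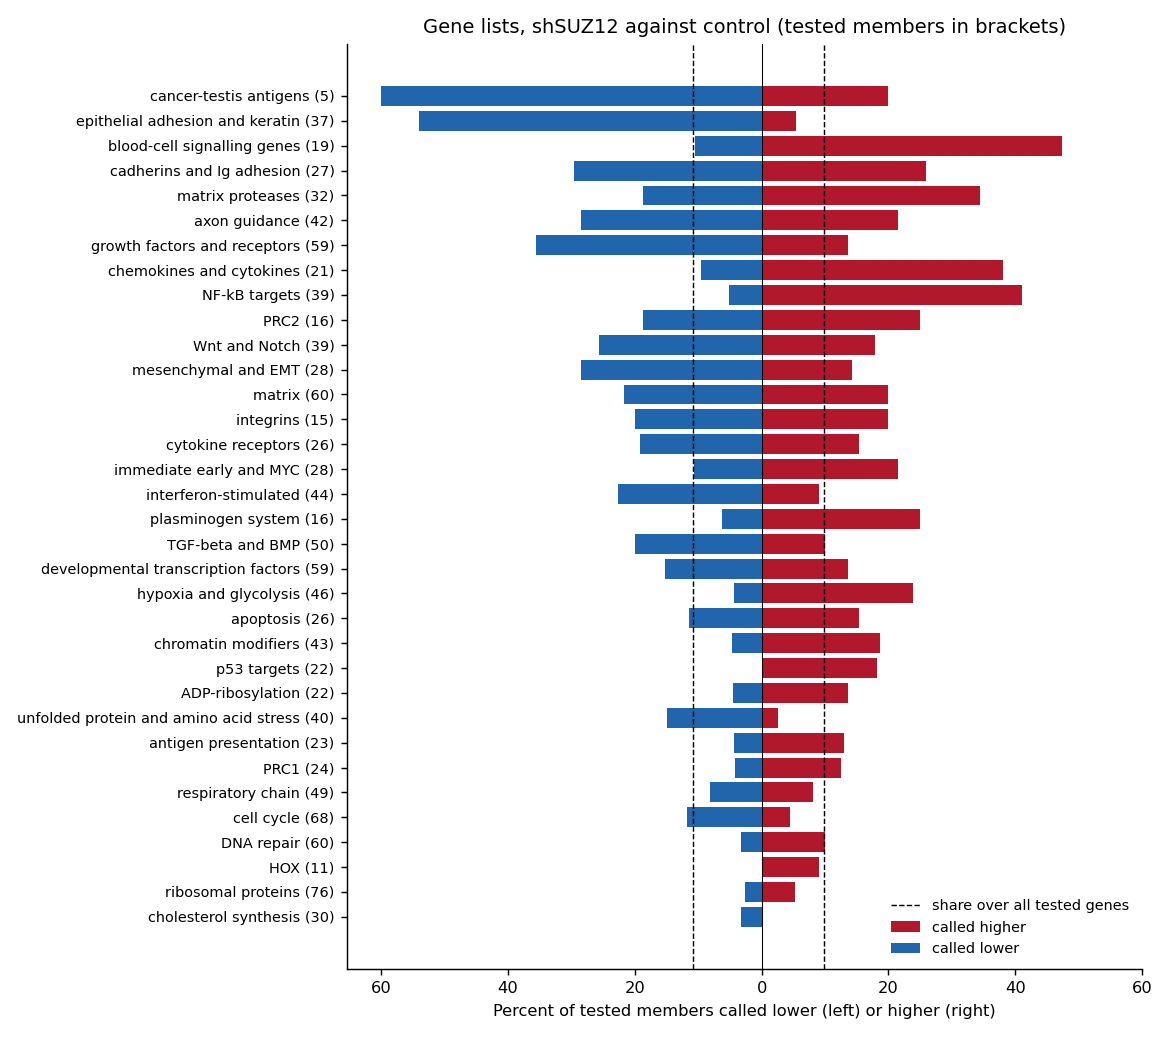
Percent of the tested members of each gene list that were called higher (right, red) or lower (left, blue) in the shSUZ12 line, with the number tested in brackets. Dashed lines mark the shares over all tested genes, 9.81% higher and 10.8% lower; the epithelial list reaches furthest to the left among lists of over 5 genes and the blood-cell signalling list furthest to the right.

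Counts of several lists changed when 1 shSUZ12 library was left out, a fit that also has fewer residual degrees of freedom. Cytokine receptors had 1 and 1 higher and 3 and 2 lower calls without shSUZ12 replicate 1 or 2, and mesenchymal genes 7 and 6 lower. Cadherins and immunoglobulin-type genes had 4 and 6 higher and 6 and 6 lower, matrix genes 9 and 7 higher and 9 and 7 lower, and axon guidance genes 6 and 6 higher and 8 and 7 lower. Wnt and Notch genes had 4 and 4 higher and 6 and 6 lower, DNA repair genes 3 and 3 higher, and hypoxia and glycolysis genes 7 and 9 higher. The p53 targets had 1 and 4 higher calls, and 8 without control replicate 2. The lower calls of TGF-beta family genes and of cancer-testis antigens did not drop without shSUZ12 replicate 1 or 2.

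The shSUZ12 line was set beside the shEZH2 line to see which of the named genes differ between the depleted lines. Both are compared with the same controls, so their changes against control are not independent. The difference was therefore tested directly, in a fit of all 6 libraries that called 216 of 14192 genes (1.52%) and 20 of the genes named by rule, 13 higher and 7 lower in the shSUZ12 line. The named genes were chosen on the same shSUZ12 libraries, so nothing is read from that count. None of these 20 calls held when any 1 control or shSUZ12 library was left out, or when only the shSUZ12 and shEZH2 libraries were fitted; their direction was the same in each.

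Several genes changed against control in the shSUZ12 line and lay near or on the other side of the control level in the shEZH2 line. ADAMTS6 read 3.24 and 2.22 CPM in the controls, 14.3 and 9.68 CPM with shSUZ12 and 0.601 and 0.871 CPM with shEZH2, a difference on the log2 scale of 4.07 ± 0.39 (shSUZ12 less shEZH2, edgeR adjusted p = 0.00917). TNC was at 111 and 65.9 CPM with shEZH2, where its range takes in the control values, a difference of 1.92 ± 0.27 (edgeR adjusted p = 0.0283). BMF and PAPPA2 were at 1.15 and 1.69 CPM and at 1.5 and 1.25 CPM with shEZH2, differences of 2.83 ± 0.32 and 2.61 ± 0.37. The MAGE genes went the other way. MAGEC2 was at 17.3 and 7.56 CPM with shEZH2, above both controls, and its difference was -4.99 ± 0.66 (edgeR adjusted p = 0.0241). MAGEC1 and MAGEA3 were at 9.02 and 7.35 CPM and at 4.76 and 2.29 CPM with shEZH2.

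NLRP2, INHBB, ITGB2 and NUP210 lay below control in both lines, to different extents. NLRP2 was at 3.46 and 5.01 CPM with shEZH2, between control and shSUZ12, a difference of -4.59 ± 0.43 (edgeR adjusted p = 0.00917). INHBB and ITGB2 were also intermediate, at 5.31 and 5.93 CPM and at 8.62 and 9.25 CPM, with differences of -2.02 ± 0.32 and -2.05 ± 0.30. NUP210 was lower still in the shEZH2 line, at 0.601 and 2.12 CPM, a difference of 3.02 ± 0.44. For most of the largest changes no difference was called. CXCR4 was at 5.66 and 6.26 CPM with shEZH2, with a difference of 0.04 ± 0.28 (edgeR adjusted p = 0.946), and CDH11 at 1.05 and 0.653 CPM, with a difference of 0.52 ± 0.37 (edgeR adjusted p = 0.409). IL8 was at 3.51 and 3.27 CPM there, with a difference of 1.53 ± 0.36 (edgeR adjusted p = 0.0726), which does not show that the lines are alike.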

How the data were processed

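Total RNA of 6 MDA-MB-231 libraries was sequenced after stranded poly(A) library preparation, per the labels' protocols. The deposited values are whole-number counts of reads per gene, not normalized, as made by the authors. The submitters' processing notes name GRCh38, STAR, GenomeStudio 2010.1 and R 3.2.5. No source used here gives the annotation or how strand was treated in counting, so antisense and overlapping genes are uncertain. Rows that count reads outside genes (16.54% to 21.03% of all reads per library) entered neither library sizes nor tests.

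The 2 shSUZ12 and 2 control libraries were fitted with edgeR 4.0.16 (TMM factors, filterByExpr, robust quasi-likelihood test) in R 4.3.3, with Benjamini-Hochberg adjustment over all 13960 tested genes; the step was tested on simulated data. Standard errors are the fold change divided by the root of the F statistic. CPM were put on 1 scale for all 6 libraries. The shSUZ12 and shEZH2 lines were compared in a fit of all 6 libraries. Alternatives were DESeq2 1.42.0, other scaling factors, no filter, a replicate block and leaving out each library. Intervals and floors cover counting error only.

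Named genes were the targeted genes, the 15 largest rises and falls among called genes with a group mean of 5 CPM or more, up to 3 rises and 3 falls per list of at least 1 CPM, the 10 most abundant called at 2-fold or more, and those differing most from shEZH2; other genes in the text were chosen after their values were seen. The members and lists were chosen with earlier results of these data known. A few genes are not reported here.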

Additional observations from a re-analysis of the deposited data

Results flagged for a closer look

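In the fit of all 6 libraries, 20 named genes differed between the shSUZ12 and the shEZH2 line by a direct test of that difference (edgeR adjusted p from 0.00917 to 0.0371). All values are log2 differences, shSUZ12 minus shEZH2, and n = 2 libraries per line. EZH2, the target of the other hairpin, differed by 1.86, with adjusted p up to 0.121 under the alternatives. SUZ12, the target of the hairpin in the shSUZ12 line, was not called in this test, at -0.32 ± 0.37 (edgeR adjusted p = 0.607). The shEZH2 libraries were far apart for SUZ12. Replicate 1 was at 135 CPM, near the controls, and replicate 2 at 56.5 CPM, below both shSUZ12 libraries.

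Higher in the shSUZ12 line were the protease genes ADAMTS6 (4.07) and PAPPA2 (2.61), the cadherin gene CDH18 (3.67) and the matrix genes SPOCK1 (2.12) and TNC (1.92). NUP210 (3.02), the kinase gene NRK (2.87), the guidance receptor gene ROBO4 (2.08) and the antiviral gene TRIM22 (2.33) were also higher. So were BMF (2.83), TP53INP1 (2.30) and CCND2 (1.73), which act in apoptosis, the p53 response and the cell cycle.

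Lower in the shSUZ12 line were the cancer-testis antigens MAGEC2 (-4.99), MAGEA3 (-4.55) and MAGEC1 (-2.78), and NLRP2 (-4.59), ITGB2 (-2.05), INHBB (-2.02) and PLCH2 (-1.66). PLCH2 was above control in both lines, at a mean of 5.88 CPM with shSUZ12 and 19.4 CPM with shEZH2. Each of the 20 kept its direction in every alternative run, and the highest edgeR adjusted p over the alternatives lay between 0.117 for NLRP2 and ADAMTS6 and 0.482 for PLCH2.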

How the results depend on the processing

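Of 186 named genes called against control, 117 kept their call under every alternative fitted to these 4 libraries, 69 lost it in at least 1, and 0 reversed. Genes called numbered 2876 and from 1251 to 4014 when 1 library was left out (1405 and 1251 without shSUZ12 replicate 1 or 2), 3449 without the filter and 228 in the 6-library fit. At 2-fold or more, 774 became 509 to 1146 when 1 library was left out and 227 in the 6-library fit. With the replicate block 3579 and 896 were called. Nothing in the labels says that a replicate number pairs libraries. Replicate differences correlated at 0.0896 between control and shSUZ12 over 13960 genes. A low correlation over all genes cannot settle whether libraries were paired. Of 186 named calls, 20 were lost with DESeq2, 6 with upper-quartile factors and 116 in the 6-library fit. Named genes called between the shSUZ12 and shEZH2 lines numbered 20, and 26 with the replicate block, 35 without the filter, 48 with DESeq2, 0 to 132 when 1 library was left out and 0 with those lines alone. There 0 calls came without any 1 control or shSUZ12 library and 132 and 96 without shEZH2 replicate 1 or 2. With 2 libraries per group and a floor of 0.136 to 0.145 CPM, changes of genes under a few CPM are the least certain.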
